A study of Mus musculus with 4 samples.

Results

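The expression of 10 genes for ubiquitin ligases linked to muscle wasting was examined in gastrocnemius muscle by RNA-seq. The genes were *Trim63*, *Fbxo32*, *Fbxo30*, *Fbxo21*, *Fbxo31*, *Traf6*, *Mul1*, *Nedd4*, *Cblb* and *Trim32*. They were chosen by name from published roles in muscle wasting, with earlier results of these data known. Each was found once among the 22252 gene names of the count tables. The 4 libraries came from 7-week-old male mice of the C57BL/6J strain, in lean GRf/f, lean GRmKO, *ob/ob* GRf/f and *ob/ob* GRmKO groups. All groups carried floxed alleles of *Nr3c1*, the gene for the glucocorticoid receptor (GR), and GRf/f mice had no Cre. In GRmKO mice, Cre under the *Acta1* promoter removed exon 3 of *Nr3c1* in myofibers, from development on, whereas the other cells of the muscle kept GR. Lean mice had intact *Lep*, and *ob/ob* mice lacked functional leptin. RNA of 3 mice was pooled for 1 library per group, so the spread between mice was not measured and no test was made.

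Muscle proteins are marked for the proteasome by a chain of enzymes, in which an E1 activates ubiquitin, an E2 carries it, and an E3 ligase selects the substrate. *Trim63* (MuRF1) and *Fbxo32* (atrogin-1) are the classical atrogenes, which are induced in many forms of muscle wasting. Glucocorticoids and FoxO transcription factors are known inducers of both genes, and insulin signaling through Akt restrains FoxO. The comparisons therefore addressed how these ligase genes differed with obesity and with the loss of muscle GR.

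A GR element next to a FoxO site in the proximal promoter of *Trim63* is known from earlier work. The RefSeq promoter table on GRCm38.p6 held windows from 250 bases before to 50 bases after the start of transcription for 9 of the 10 genes, and *Fbxo32* was not in the table. The windows were searched on both strands for GTAAACA (a FoxO site), for AGAACA (a single arm of a GR element) and for the full GR element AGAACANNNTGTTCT with at most 2 mismatches in its fixed letters. The 250 bases upstream of *Trim63* (GRCm38.p6, chr4:134314870-134315119, plus strand) are shown because this window held both kinds of site. The first 15 capitals are the full GR element, with 1 mismatch, and the next 7 capitals are the FoxO site, read on the minus strand.
Trim63: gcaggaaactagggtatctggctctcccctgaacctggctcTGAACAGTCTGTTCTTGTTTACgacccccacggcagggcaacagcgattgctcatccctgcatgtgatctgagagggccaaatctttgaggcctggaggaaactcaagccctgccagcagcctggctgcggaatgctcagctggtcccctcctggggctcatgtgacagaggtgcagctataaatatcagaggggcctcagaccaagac
The GR element lay at bases -209 to -195 from the start and the FoxO site at bases -194 to -188, with no base between them. The single arm, at bases -200 to -195, is part of the full element. Of all 32851 windows, 3.65% held the FoxO letters, 19.0% the single arm and 1.84% the full element. *Trim63* was the only one of the 9 genes with any of these letters in the window at its main start. A second window of *Nedd4* held a single arm at bases -216 to -211. These matches describe letters only, and the absence of a match in these windows bears on no factor.

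**Figure D1:**
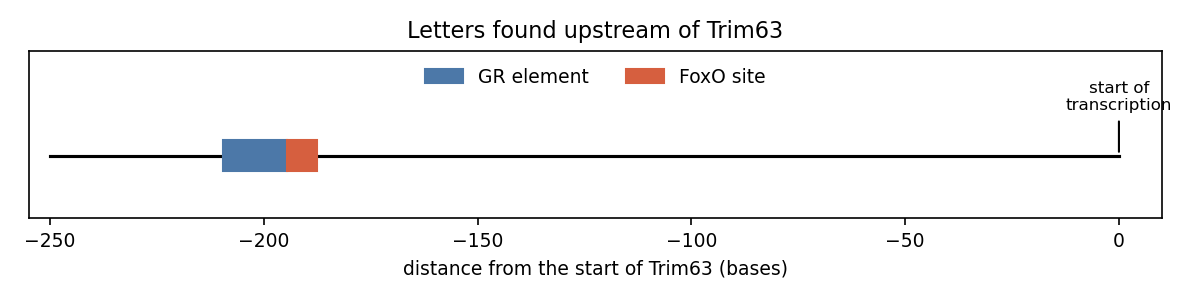
Positions of the letters found upstream of *Trim63*. The axis is the distance from the start of transcription in bases. The GR element (-209 to -195) and the FoxO site (-194 to -188) adjoin each other.

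The libraries held from 19897754 to 20959781 expected counts. Values are given as CPM, the expected count of a gene scaled to a library total of 1000000. A count of 3 corresponded to between 0.143 and 0.151 CPM, and all 10 genes lay well above this. A change was called past the threshold when it was at least 1.5-fold (0.585 on the log2 scale). This was applied to 11141 genes that had a count above 0 in every library and a mean of at least 50 counts, which included all 10 ligase genes. Intervals are 95% and cover counting error only, since they are computed from rounded counts of 1 library or of a pair. The tissue was checked by 9 muscle fiber markers, which summed to between 103214 and 123727 CPM per library. *Nr3c1* was at 125 CPM in lean GRf/f, 67.0 in lean GRmKO, 102 in *ob/ob* GRf/f and 39.1 in *ob/ob* GRmKO muscle. *Fkbp5*, a classical GR target, was at 88.8, 22.8, 106 and 26.1 CPM in the same order. Both genes were lower in both GRmKO libraries, in the direction of the labels, and both values cover all cells of the muscle. Counts are of whole transcripts, so *Nr3c1* transcripts that lack exon 3 can still add to its value. How much they add was not tested. The RNA of a whole muscle mixes cell types, so fewer cells of a type and less RNA per cell cannot be told apart.

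The 10 genes together took from 0.115% to 0.125% of each library. Their summed level was 1254 CPM in lean GRf/f, 1159 CPM in lean GRmKO, 1178 CPM in *ob/ob* GRf/f and 1154 CPM in *ob/ob* GRmKO muscle. The sum was thus nearly the same in all groups, whereas single genes differed. *Nedd4*, at 528 to 570 CPM, was the largest part of each sum and also the steadiest gene, so the sum mostly follows it.

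Levels of different genes were compared per kb of the transcript listed for the gene, as means over the 4 libraries. *Trim63* was highest with 106 CPM per kb and *Nedd4* followed with 99.1. *Fbxo31* and *Fbxo32* came next with 28.9 and 28.8 CPM per kb. *Mul1* had 8.50, *Fbxo21* 5.05, *Traf6* 3.81, *Trim32* 3.56, *Fbxo30* 3.00 and *Cblb* 1.95 CPM per kb. The ranges over the 4 libraries overlapped between *Trim63* and *Nedd4*, *Fbxo31* and *Fbxo32*, *Fbxo21* and *Traf6*, *Traf6* and *Trim32*, and *Trim32* and *Fbxo30*, so these neighbors cannot be ordered. The order of the means did not change when the longest coding transcript was used. The ligases of the classical atrogene pair thus stood among the 4 highest of the 10, together with *Nedd4* and *Fbxo31*.

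The genes varied to unequal extents between libraries. The ratio of the highest to the lowest CPM was 2.52 for *Trim32*, 1.79 for *Fbxo31*, 1.66 for *Trim63*, 1.61 for both *Fbxo21* and *Fbxo32*, 1.41 for *Fbxo30* and 1.39 for *Cblb*. It was 1.27 for *Traf6*, 1.14 for *Mul1* and 1.08 for *Nedd4*, which was the steadiest of the 10.

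**Figure D2:**
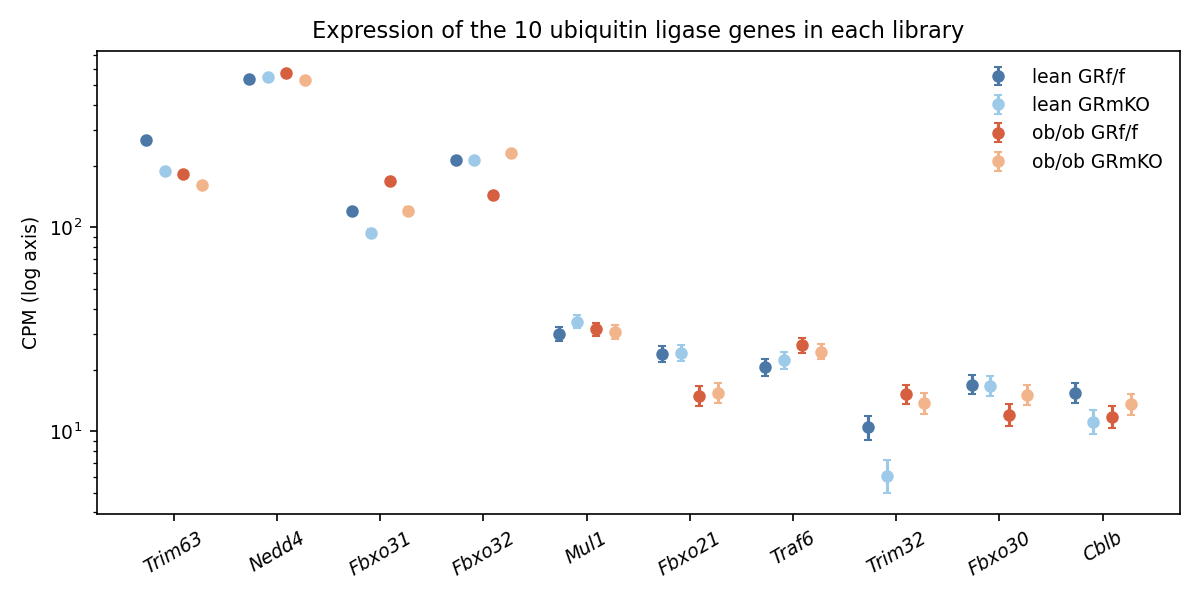
Expression of the 10 ubiquitin ligase genes in each library, in CPM on a log axis, ordered by mean CPM per kb. Points are single libraries (1 per group, RNA of 3 mice pooled) and bars are 95% counting intervals. *Trim63* was highest in lean GRf/f muscle and *Fbxo32* lowest in *ob/ob* GRf/f muscle, whereas *Nedd4* was nearly level.

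*Trim63* (chr4:134315120-134329629, plus strand) encodes MuRF1, a RING ligase of the sarcomere that acts on myosin heavy chains and other thick filament proteins. Its level was 267 CPM (260 to 275) in lean GRf/f, 189 CPM (183 to 195) in lean GRmKO, 183 CPM (178 to 189) in *ob/ob* GRf/f and 161 CPM (155 to 166) in *ob/ob* GRmKO muscle. The lean GRf/f library was highest, and the 3 others lay lower and closer together. With obesity, the log2 change was -0.55 (-0.61 to -0.49) in GRf/f and -0.23 (-0.30 to -0.17) in GRmKO mice. With the loss of muscle GR, it was -0.50 (-0.56 to -0.44) in lean and -0.19 (-0.26 to -0.12) in *ob/ob* mice. On the CPM scale, all 4 changes were downward and outside counting error, and none reached 1.5-fold. The change with obesity in GRmKO mice was only -0.03 with TMM and -0.02 with DESeq2 scaling. Each of the 4 comparisons uses 2 of the same 4 libraries, so they are not independent of each other.

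*Fbxo32* (chr15:58175879-58214932, minus strand) encodes atrogin-1, the F-box protein through which an SCF ligase recognizes substrates such as MyoD and eIF3f. Its level was 214 CPM (208 to 221) in lean GRf/f, 214 CPM (207 to 220) in lean GRmKO, 144 CPM (139 to 149) in *ob/ob* GRf/f and 232 CPM (225 to 238) in *ob/ob* GRmKO muscle. A single library, *ob/ob* GRf/f, was thus low, and the other 3 were closer to each other, with *ob/ob* GRmKO above both lean libraries beyond counting error. The loss of muscle GR went with a 1.61-fold higher level in *ob/ob* mice (log2 0.69, 0.62 to 0.75), which was past the threshold, and with a log2 change of -0.00 (-0.07 to 0.06) in lean mice. With obesity, the log2 change was -0.57 (-0.64 to -0.51) in GRf/f and 0.12 (0.06 to 0.18) in GRmKO mice. *Fbxo32* has 1 coding transcript in GENCODE. Its exons overlap 186 bp of the noncoding antisense gene *Gm15943* on the opposite strand, which was not among the quantified protein-coding transcripts.

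The 2 classical atrogenes were therefore both lower in *ob/ob* than in lean GRf/f muscle, by 1.46-fold for *Trim63* and 1.49-fold for *Fbxo32*. They differed in GRmKO muscle, in which *Trim63* was lowest of all groups in *ob/ob* mice and *Fbxo32* was highest.

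The next 3 genes encode F-box proteins of SCF ligases and are known as FoxO targets in wasting muscle. *Fbxo30* (chr10:11281330-11298052), known as MUSA1, was at 17.0 CPM in lean GRf/f, 16.7 CPM in lean GRmKO, 12.04 CPM in *ob/ob* GRf/f and 15.1 CPM in *ob/ob* GRmKO muscle. As for *Fbxo32*, the *ob/ob* GRf/f library was the lowest. Its log2 change with obesity was -0.49 (-0.74 to -0.26) in GRf/f and -0.15 (-0.37 to 0.08) in GRmKO mice, and the latter turned positive with TMM and DESeq2 scaling. Between genotypes it was -0.02 (-0.24 to 0.20) in lean and 0.32 (0.08 to 0.57) in *ob/ob* mice.

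*Fbxo21* (chr5:117976730-118010201), known as SMART, was at 23.9 CPM in lean GRf/f, 24.1 CPM in lean GRmKO, 14.9 CPM in *ob/ob* GRf/f and 15.5 CPM in *ob/ob* GRmKO muscle. Both lean libraries were high and both *ob/ob* libraries low, with counting intervals that did not overlap. It was 1.60-fold lower in *ob/ob* mice with GR (log2 -0.68, -0.89 to -0.47) and 1.56-fold lower without (log2 -0.64, -0.85 to -0.44), both past the threshold. Between genotypes, the log2 change was 0.01 (-0.17 to 0.20) in lean and 0.05 (-0.18 to 0.28) in *ob/ob* mice. *Fbxo21* was the only one of the 10 genes past the threshold with obesity in both genotypes, but these calls did not hold with TMM scaling (log2 -0.57 and -0.44) or DESeq2 scaling (-0.56 and -0.43).

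*Fbxo31* (chr8:121549440-121578806, minus strand) was at 120 CPM (115 to 125) in lean GRf/f, 94.3 CPM (90.1 to 98.7) in lean GRmKO, 169 CPM (163 to 175) in *ob/ob* GRf/f and 121 CPM (116 to 126) in *ob/ob* GRmKO muscle. In GRf/f mice it thus ran opposite to the other F-box genes with obesity. The log2 change with obesity was 0.49 (0.42 to 0.57) in GRf/f and 0.36 (0.27 to 0.45) in GRmKO mice. The first of these was past the threshold with TMM and DESeq2 scaling. With the loss of muscle GR it was -0.35 (-0.43 to -0.26) in lean and -0.48 (-0.55 to -0.41) in *ob/ob* mice. The lean GRf/f and *ob/ob* GRmKO libraries had overlapping intervals, with the other two libraries on either side.

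*Traf6* (chr2:101678429-101701669) encodes a RING ligase that builds signaling ubiquitin chains upstream of NF-kB. Its level was 20.7 CPM in lean GRf/f, 22.3 CPM in lean GRmKO, 26.4 CPM in *ob/ob* GRf/f and 24.6 CPM in *ob/ob* GRmKO muscle. Both *ob/ob* libraries were above both lean libraries, and on the CPM scale only the change in GRf/f mice was outside counting error (log2 0.35, 0.17 to 0.54). In GRmKO mice it was 0.14 (-0.04 to 0.33), and between genotypes it was 0.11 in lean and -0.10 in *ob/ob* mice. With TMM scaling, the change with obesity was 0.46 in GRf/f and 0.35 in GRmKO mice, so this contrast depends on the scaling. *Traf6* has 1 coding transcript in GENCODE.

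*Mul1* (chr4:138434671-138442265) encodes a ligase of the mitochondrial outer membrane that acts on mitofusin 2. It was at 30.1, 34.5, 31.6 and 30.7 CPM in lean GRf/f, lean GRmKO, *ob/ob* GRf/f and *ob/ob* GRmKO muscle. The lean GRmKO library was slightly above the other 3. Its 4 log2 changes lay between -0.17 and 0.19, and those of *ob/ob* GRmKO mice changed sign with the scaling.

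*Nedd4* (chr9:72662346-72749852) encodes a HECT ligase, of which Notch1 is a known substrate in denervated muscle. It was at 534 CPM (525 to 545) in lean GRf/f, 547 CPM (537 to 558) in lean GRmKO, 570 CPM (560 to 581) in *ob/ob* GRf/f and 528 CPM (518 to 538) in *ob/ob* GRmKO muscle. Its log2 changes lay between -0.11 and 0.09, the narrowest range of the 10 genes. With obesity the change was 0.09 (0.06 to 0.13) in GRf/f and -0.05 (-0.09 to -0.02) in GRmKO mice, and the latter was positive with every library scaling other than the total count.

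*Cblb* (chr16:52031225-52208048) encodes a RING ligase that promotes the degradation of IRS1 in unloaded muscle. It was at 15.4 CPM (13.8 to 17.2) in lean GRf/f, 11.1 CPM (9.69 to 12.7) in lean GRmKO, 11.8 CPM (10.4 to 13.3) in *ob/ob* GRf/f and 13.6 CPM (12.1 to 15.3) in *ob/ob* GRmKO muscle. The lean GRf/f library was highest. The log2 change with obesity was -0.39 (-0.64 to -0.15) in GRf/f and 0.29 (0.03 to 0.55) in GRmKO mice. The loss of muscle GR gave -0.48 (-0.73 to -0.23) in lean and 0.21 (-0.04 to 0.46) in *ob/ob* mice.

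*Trim32* (chr4:65604986-65616238) encodes a TRIM ligase that acts on desmin and dysbindin and is mutated in a limb-girdle muscular dystrophy. It was at 10.5 CPM (9.11 to 11.9) in lean GRf/f, 6.03 CPM (5.0 to 7.21) in lean GRmKO, 15.2 CPM (13.6 to 16.9) in *ob/ob* GRf/f and 13.8 CPM (12.2 to 15.4) in *ob/ob* GRmKO muscle. The lean GRmKO library was by far the lowest, and the 2 *ob/ob* libraries had overlapping intervals. *Trim32* was 2.28-fold higher with obesity in GRmKO mice (log2 1.19, 0.88 to 1.51) and 1.74-fold lower with the loss of muscle GR in lean mice (log2 -0.80, -1.13 to -0.46). Both values were past the threshold and rest on the lean GRmKO library, which held 120 counts of this gene. In GRf/f mice the log2 change with obesity was 0.54 (0.28 to 0.79), which was past the threshold with TMM, DESeq2 and upper quartile scaling. Between *ob/ob* genotypes it was -0.14 (-0.38 to 0.09).

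Across the 10 genes, the counts past the threshold were low in every comparison. With obesity in GRf/f mice, 0 genes were higher and 1 was lower (*Fbxo21*), against 5.1% higher and 11.4% lower of all genes tested. With obesity in GRmKO mice, 1 was higher (*Trim32*) and 1 lower (*Fbxo21*), against 4.79% and 19.7% of all genes. With the loss of muscle GR in lean mice, 0 were higher and 1 lower (*Trim32*), against 4.88% and 3.59%. With the loss of muscle GR in *ob/ob* mice, 1 was higher (*Fbxo32*) and 0 lower, against 4.41% and 8.11%. With counts of 0 or 1 of 10 beside these background shares, nothing particular to the 10 genes is read from them.

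On the CPM scale, more of the ligase genes moved beyond counting error than beyond 1.5-fold. In GRf/f mice, 9 of the 10 changes with obesity were outside counting error, all but that of *Mul1*, and in GRmKO mice 8 were, beside 56.9% and 64.8% of all genes tested. Between genotypes, 5 of 10 were outside counting error among lean mice and 5 among *ob/ob* mice, beside 41.1% and 48.1%. A change outside counting error was thus common among all genes, and nothing particular to the 10 is read from these counts. The median log2 change of the 10 genes with obesity was -0.16 in GRf/f and 0.03 in GRmKO mice, beside -0.11 and -0.20 for all genes tested. Between genotypes it was -0.01 in lean and -0.07 in *ob/ob* mice, beside 0.04 and -0.04.

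The median gene was thus lower in both *ob/ob* libraries on the CPM scale, and TMM scaling brought it to 0.00 and 0.01. The split of all genes past the threshold in GRf/f mice then moved from 568 higher and 1266 lower to 840 and 886, and in GRmKO mice from 534 and 2190 to 1060 and 1283. Relative to the median gene, the log2 change with obesity in GRf/f mice was -0.44 for *Trim63*, -0.47 for *Fbxo32*, -0.57 for *Fbxo21*, 0.60 for *Fbxo31* and 0.64 for *Trim32*. In GRmKO mice it was -0.04 for *Trim63*, 0.31 for *Fbxo32*, -0.45 for *Fbxo21*, 0.56 for *Fbxo31* and 1.39 for *Trim32*. *Trim63* was then close to the median gene in GRmKO mice, and *Fbxo31* and *Trim32* stood further above it in both genotypes than on the CPM scale.

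**Figure D3:**
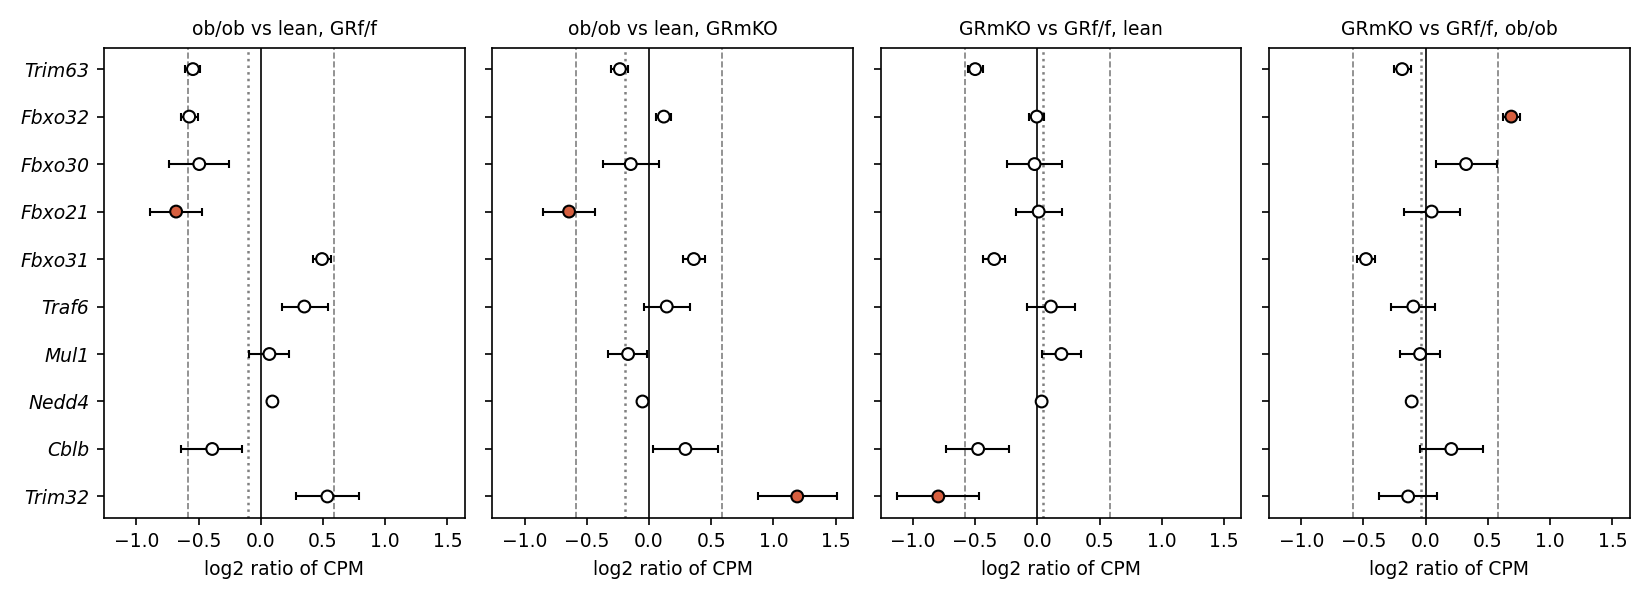
Log2 ratio of CPM of the 10 genes in the 4 comparisons. Bars are 95% counting intervals, filled points are past 1.5-fold (dashed lines), and the dotted line is the median of all 11141 genes tested. *Fbxo21* and *Trim32* pass with obesity, *Trim32* between lean genotypes and *Fbxo32* between *ob/ob* genotypes.

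The change with obesity was then compared between genotypes, as the log2 change in GRmKO minus that in GRf/f mice. It was 0.69 for *Fbxo32* (0.60 to 0.78), 0.68 for *Cblb* (0.33 to 1.03) and 0.66 for *Trim32* (0.26 to 1.05), each above 1.5-fold in size. These 3 of 10 stand beside 18.1% of all genes tested. *Fbxo32* and *Cblb* were lower with obesity in GRf/f and higher in GRmKO mice, whereas *Trim32* was higher in both.

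For the other 7 genes, the difference was smaller. It was 0.31 (0.22 to 0.40) for *Trim63* and 0.35 (0.03 to 0.67) for *Fbxo30*. On the CPM scale, both genes were lower with obesity in GRf/f mice and less so in GRmKO mice. The difference was 0.04 for *Fbxo21*, -0.13 for *Fbxo31*, -0.15 for *Nedd4*, -0.21 for *Traf6* and -0.24 for *Mul1*. On the CPM scale, the differences of 8 of the 10 genes were outside counting error, all but those of *Fbxo21* and *Traf6*, beside 42.4% of all genes tested. With TMM scaling, the difference was -0.03 for *Fbxo31*, -0.05 for *Nedd4* and -0.14 for *Mul1*, and none of these was outside counting error. Counting intervals narrow with depth, and the genes tested include many with fewer counts. Nothing particular to the 10 genes is therefore read from this count. The median difference of the 10 genes was 0.17, beside -0.07 for all genes. With 1 library per group, none of these differences could be tested.

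**Figure D4:**
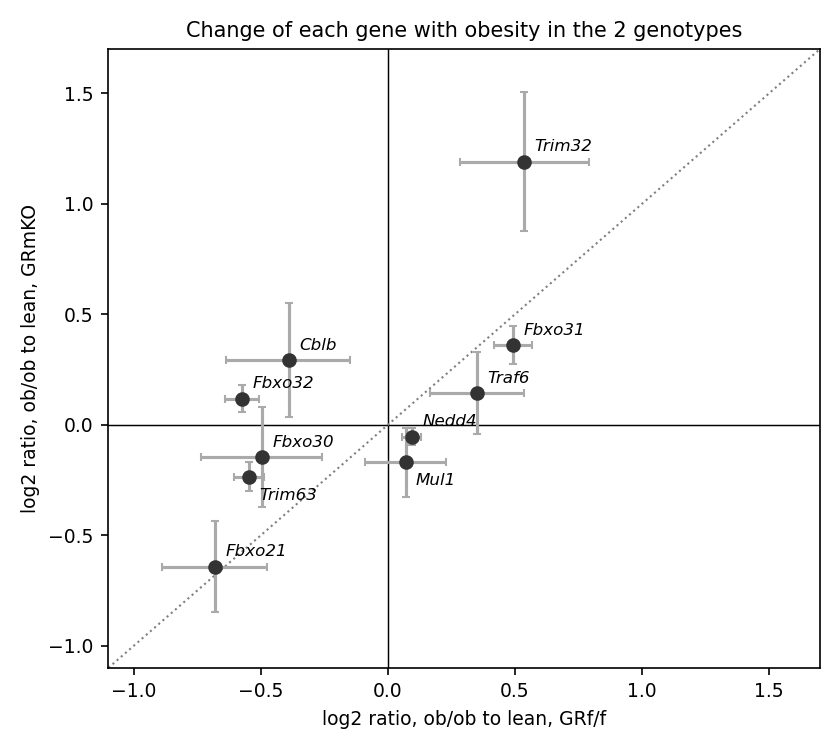
Log2 ratio of *ob/ob* to lean for each of the 10 genes, in GRf/f mice on the horizontal and in GRmKO mice on the vertical axis. Bars are 95% counting intervals and the dotted diagonal marks equal changes. *Fbxo32* and *Cblb* lie in the upper left field, *Trim32* lies above the diagonal, and *Fbxo21* lies on it.

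Genes that act upstream of the ligases were examined next, from a list of 22 genes that also holds *Fkbp5* as a readout of GR. Of these, 20 were tested. Counts of this and the following lists are on the CPM scale, and those that differ by 2 or more genes with TMM or DESeq2 scaling are given with both values. With the loss of muscle GR, 3 were higher and 7 lower past the threshold in lean mice, and 2 were higher and 5 lower in *ob/ob* mice. Of all genes tested, 4.88% were higher and 3.59% lower in lean mice, and 4.41% and 8.11% in *ob/ob* mice. The list holds *Nr3c1*, which the knockout targets, and GR targets such as *Fkbp5* and *Klf15*, so these counts are not independent of the design. How many of the other genes on the list respond to GR was not tested. With obesity, 1 of the 20 was higher and 3 lower in GRf/f mice, beside 5.1% and 11.4% of all genes. In GRmKO mice, 3 were higher and 3 lower (5 and 1 with TMM), beside 4.79% and 19.7%. *Nr3c1* (log2 -0.90 in the lean and -1.38 in the *ob/ob* background) and *Fkbp5* (-1.96 and -2.02) were among those lower in both. *Foxo1*, a FoxO factor that induces atrogenes, was at 66.8, 38.7, 58.8 and 33.2 CPM in lean GRf/f, lean GRmKO, *ob/ob* GRf/f and *ob/ob* GRmKO muscle. It was thus lower in both GRmKO libraries, with log2 changes of -0.79 and -0.83.

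Of its relatives, *Foxo3* had log2 changes between genotypes of -0.19 and -0.23 in lean and *ob/ob* mice, and *Foxo4* had -0.07 and 0.06. *Foxo6*, named here after its values were seen, ran opposite to *Foxo1*, at 12.7, 19.5, 11.2 and 18.8 CPM in the same order of groups. Its log2 change was 0.62 in lean mice, which was under the threshold with TMM (0.56), and 0.75 in *ob/ob* mice. *Klf15*, a GR target that promotes atrogene expression, had -0.33 and -0.17. *Ddit4*, an inhibitor of mTORC1, was at 93.1 CPM in lean GRf/f muscle and at 37.1, 26.0 and 23.9 CPM in the other libraries. This order, with lean GRf/f highest and *ob/ob* GRmKO lowest, was also that of *Trim63*, over a wider range. *Myog*, which drives atrogenes in denervated muscle, was at 6.17 and 7.52 CPM in lean and *ob/ob* GRf/f and at 13.6 and 21.1 CPM in lean and *ob/ob* GRmKO muscle. It was higher in both GRmKO libraries, by log2 1.14 and 1.49.

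**Figure D5:**
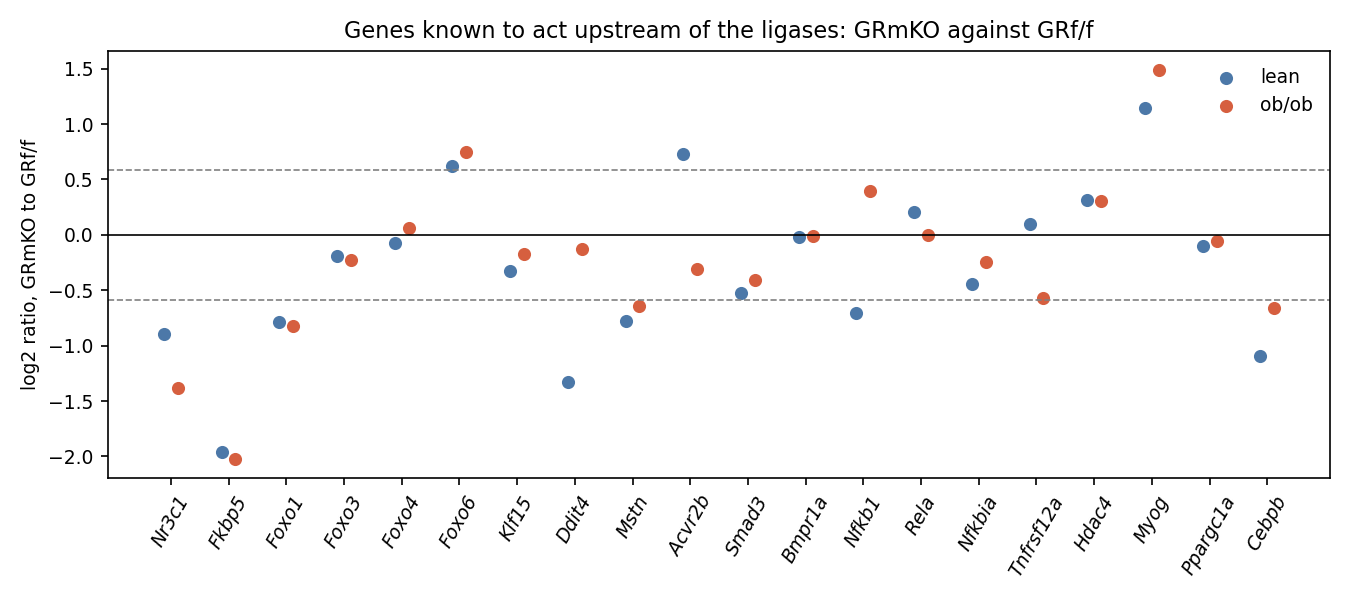
Log2 ratio of GRmKO to GRf/f for the 20 tested genes of the regulator list, *Fkbp5* included, in lean and *ob/ob* mice (1 library per group). Dashed lines mark 1.5-fold. *Nr3c1*, *Fkbp5* and *Foxo1* are among those below the lower line in both backgrounds, and *Myog* and *Foxo6* lie above the upper line in both.

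Known substrates of the 10 ligases were followed through a list of 17 genes, all of which were tested. With obesity, 4 were higher and 0 lower past the threshold in GRf/f mice, and 6 were higher and 0 lower in GRmKO mice. Of all genes tested, 5.1% were higher and 11.4% lower in GRf/f, and 4.79% and 19.7% in GRmKO mice. Between genotypes, 1 of the 17 was higher in lean and 3 in *ob/ob* mice, with 0 lower in either. The shares of all genes were 4.88% and 4.41% higher, and 3.59% and 8.11% lower. *Myh7*, the slow myosin heavy chain, was at 63.0 and 84.7 CPM in lean GRf/f and GRmKO and at 275 and 418 CPM in *ob/ob* GRf/f and GRmKO muscle. *Myh2*, the myosin heavy chain of type IIa fibers, was at 662 and 508 CPM in the lean and at 1403 and 1722 CPM in the *ob/ob* libraries. Both myosin heavy chain transcripts were thus higher in the *ob/ob* libraries. These are transcript levels, and the proteins on which the ligases act were not measured. Myosin heavy chain genes are alike in sequence, so reads may have been split between them with error, and several are fiber markers as well. *Mybpc1*, a thick filament protein, was also higher with obesity (log2 0.93 and 0.87). *Myod1*, a substrate of atrogin-1, was higher with the loss of muscle GR in lean (log2 0.62, under the threshold with TMM) and *ob/ob* mice (log2 0.93).

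The other 2 MuRF genes were examined beside *Trim63*. *Trim54* (MuRF3) was at 346, 293, 337 and 293 CPM and *Trim55* (MuRF2) at 73.7, 91.8, 70.2 and 86.7 CPM in the order of the groups above. Neither passed the threshold in any comparison. *Trim54* was lower and *Trim55* higher in both GRmKO libraries, and both had log2 changes with obesity from -0.08 to -0.00, which turned positive with TMM and DESeq2 scaling.

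Among 22 tested genes for other ubiquitin ligases of muscle, 0 were higher and 1 lower past the threshold with obesity in GRf/f mice, and 3 were higher and 0 lower in each of the other 3 comparisons. Of all genes tested, 4.41% to 5.1% were higher and 3.59% to 19.7% lower in these comparisons. With TMM scaling, 2 of the 22 were higher and 0 lower with obesity in GRf/f mice, and 6 were higher and 0 lower in GRmKO mice. Between lean genotypes, 1 was then higher and 0 lower. *Fbxl22*, an F-box protein of the sarcomere, was at 7.93 and 6.09 CPM in lean and *ob/ob* GRf/f and at 16.4 and 26.1 CPM in lean and *ob/ob* GRmKO muscle. It differed between genotypes by log2 1.05 in lean and 2.10 in *ob/ob* mice, more than any of the 10 genes. *Fbxw7* was also higher in both GRmKO libraries (log2 0.62, which was under the threshold with TMM, and 0.76). *Huwe1*, a large HECT ligase, was at 105, 104 and 113 CPM and at 173 CPM in *ob/ob* GRmKO muscle. *Ubr4*, a ligase that recognizes N-terminal residues, was at 89.4 and 80.7 CPM in the lean and at 122 and 135 CPM in the *ob/ob* libraries.

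The core of the SCF ligase is shared by the F-box members. Of 5 tested genes, 1 was lower past the threshold with obesity in GRf/f mice, beside 11.4% of all genes tested, and 0 passed in the other comparisons. The gene that passed was *Nedd8* (log2 -0.66, and -0.55 with TMM), the modifier that activates cullins. The median log2 change with obesity of the 5 was -0.21 in GRf/f and -0.28 in GRmKO mice, beside -0.11 and -0.20 for all genes. Of 20 genes for E1 and E2 enzymes and ubiquitin, 1 was lower with obesity in GRf/f and 4 in GRmKO mice, 0 were higher, and 0 passed between genotypes. Between lean genotypes, 4.88% of all genes tested were higher and 3.59% lower, and between *ob/ob* genotypes 4.41% and 8.11%. The shares of all genes tested that were lower with obesity were 11.4% and 19.7%. With TMM scaling, 2 in place of 4 were lower in GRmKO mice. *Rps27a*, a gene for ubiquitin fused to a ribosomal protein, was lower in both (log2 -0.72 and -0.80), and *Ube2a*, which encodes an E2 enzyme, was lower in GRmKO mice (-0.67, and -0.47 with TMM, which was under the threshold). Genes for ubiquitin share their repeated coding sequence and have pseudogenes, so their counts are uncertain. The deubiquitinase gene *Usp2* was lower with the loss of muscle GR in lean mice (log2 -0.82), 1 of 10 in its list, beside 3.59% of all genes tested.

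The patterns most like those of the classical atrogenes were sought among 7875 genes with a mean of at least 200 counts, by the distance between log2 CPM centered on their mean over the 4 libraries. For *Trim63* these were *Adgrg1* (distance 0.04), *Mad2l1bp* (0.09) and *Nampt* (0.09). *Adgrg1* was at 90.4, 65.6, 64.5 and 56.3 CPM. For *Fbxo32* these were *Ky* (distance 0.05), *Etv3* (0.06) and *Sord* (0.07). *Ky*, a gene needed for muscle growth, was at 421, 404, 285 and 448 CPM, so that its *ob/ob* GRf/f library was also the lowest. With 4 libraries, many genes can share a pattern, and these names are a description only.

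Marker genes of cell types and states also moved with the groups, and 0 of the listed markers were at 0 in any library. Of all genes tested, 5.1% were higher and 11.4% lower with obesity in GRf/f mice, and 4.79% and 19.7% in GRmKO mice. With the loss of muscle GR, 4.88% were higher and 3.59% lower in lean mice, and 4.41% and 8.11% in *ob/ob* mice. The summed level of 8 slow fiber markers was 488 and 650 CPM in lean GRf/f and GRmKO and 1086 and 1554 CPM in *ob/ob* GRf/f and GRmKO muscle, and all 8 were higher with obesity past the threshold in both genotypes. The sum of 6 adipocyte markers was 512 CPM in lean GRf/f muscle, in which *Trim63* was highest, and 272, 265 and 143 CPM in the others. Between the lean and *ob/ob* GRf/f libraries its members did not move together, as *Cfd* was at 267 against 14.4 CPM, *Adipoq* at 81.4 against 80.4 CPM and *Lep* at 14.1 against 69.6 CPM, and 1 of the 6 was higher and 2 lower past the threshold. With the loss of muscle GR, 6 of 6 were lower past the threshold among lean and 5 of 6 among *ob/ob* mice. The sum of 4 fibroblast markers was 6915 CPM in *ob/ob* GRf/f muscle, in which *Fbxo32* was lowest, and 3901 to 4294 CPM in the others. This sum followed the collagen genes *Col1a1*, which was at 1279 against 4108 CPM in the lean and *ob/ob* GRf/f libraries, and *Col3a1*, which was at 1307 against 1853 CPM. *Dcn* was at 1247 against 882 CPM and *Pdgfra* at 68.3 against 72.3 CPM, so that 1 of the 4 passed the threshold (2 with TMM).

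The sum of 6 macrophage markers was 438 and 564 CPM in the lean and 288 and 207 CPM in the *ob/ob* libraries, and the sum over 6 erythroid markers was 2229 and 2127 CPM against 970 and 872 CPM. Of 5 genes of the denervation response, *Myog* among them, 4 were tested. All 4 were higher past the threshold in GRmKO muscle in both backgrounds (3 in lean mice with TMM), beside 4.88% and 4.41% of all genes tested. The sum of all 5 was 31.7 and 53.6 CPM in lean and *ob/ob* GRf/f and 70.4 and 120 CPM in lean and *ob/ob* GRmKO muscle. Endothelial markers summed to 286 to 475 CPM, Schwann cell markers to 340 to 477 CPM and satellite cell markers to 8.27 to 14.4 CPM. The part of any of these cell types and states in the values of the ligase genes was not tested.

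Each gene name carried 1 transcript ID in the count tables. The methods of the study name both a gene-level summary and the removal of duplicated names, and whether a value covers the listed transcript alone or all coding transcripts of the gene was not settled from these sources. This has no bearing on *Fbxo32* and *Traf6*, which have 1 coding transcript each. *Trim63*, *Fbxo30* and *Fbxo31* have 2 coding transcripts, *Fbxo21* and *Mul1* have 3, *Nedd4* and *Trim32* have 4, and *Cblb* has 5, so that a shift between transcripts and a change of the gene cannot be told apart for these.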

How the data were processed

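RNA of 3 mice per group was pooled and sequenced by the authors as 100-bp paired-end reads, which they quantified against protein-coding GENCODE transcripts (mm10) with Salmon v1.2.1 and summarized with the summarizeToGene function of tximport (lengthScaledTPM) in R v3.5.0. The deposited tables hold expected counts of 22252 gene names, with the entry of the largest total kept for duplicated names, and are not normalized between libraries.

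Here, expected counts were divided by the library total (CPM), and genes above 0 in all 4 libraries with a mean of at least 50 counts were compared by a size rule of 1.5-fold. With 1 library per group, no test was made and no *P* value is given. The NOISeq-sim method of the study was not used, because its probability covers simulated technical sampling only. Counting intervals are exact Poisson for CPM and Clopper-Pearson for ratios, from rounded counts, and that of a difference of changes uses a normal approximation. The calls were tested on simulated data. These data held counting error only, so the spread between mice was not covered.

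All 10 ligase genes were named, with up to 4 genes of each context list by largest change past the threshold, plus *Nr3c1*, *Fkbp5*, *Foxo1*, *Foxo3*, *Foxo4* and *Klf15*. Of these, genes on the lists of Fbxo and Trim relatives are given in the closing section, and some genes that met the rule are not reported here. The members and lists were chosen with earlier results of these data known. Coordinates and exon overlaps are from GENCODE on GRCm38. A search of protein sequences was not run. Python 3.11.15, numpy 2.4.6, pandas 2.3.3, scipy 1.17.1 and matplotlib 3.10.9 were used, and edgeR 4.0.16 and DESeq2 1.42.0 in R 4.3.3 gave scaling factors from rounded expected counts only.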

Additional observations from a re-analysis of the deposited data

Results flagged for a closer look

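The sign of the change with obesity differed between GRf/f and GRmKO mice for 3 genes, with all counting intervals away from 0. The log2 change in GRmKO minus that in GRf/f mice was 0.69 for *Fbxo32*, 0.68 for *Cblb* and -0.15 for *Nedd4*. The opposite directions of *Fbxo32* and *Cblb* were the same under every library scaling tried. *Nedd4* was higher with obesity in both genotypes under each of the 5 other scalings, so its opposite directions depend on the scaling. With 1 library per group, none of these differences was tested.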

How the results depend on the processing

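The direction of no called value was reversed by any library scaling. The single change of *Fbxo32* between *ob/ob* genotypes and of *Trim32* between lean genotypes passed 1.5-fold under all 5 scalings tried, as did the 3 genes with a larger difference between genotypes. With obesity in GRf/f mice, 2 ligase genes passed with TMM and with DESeq2 factors (*Fbxo31* and *Trim32*, both higher) and 2 with upper quartile scaling (*Fbxo21* and *Trim32*). With obesity in GRmKO mice, 1 passed (*Trim32*) with TMM, DESeq2, upper quartile, a library total that left out the 50 top genes, and unscaled counts. At 2-fold, 0 passed with obesity in GRf/f, 1 (*Trim32*) in GRmKO mice, 0 between lean and 0 between *ob/ob* genotypes. Counts of all genes moved with the filter and the threshold. For obesity in GRf/f, obesity in GRmKO, lean genotypes and *ob/ob* genotypes they were 3482, 4512, 2445 and 2959 without a minimum mean count, 952, 1535, 407 and 663 with a mean of at least 200 counts, and 513, 912, 274 and 395 at 2-fold. No paired analysis was possible because each group has 1 library and the labels give no replicate number, and no library could be left out. Rescaling of the context lists was an alternative chosen after seeing the data. Depth limits *Trim32* and *Cblb* most, with as few as 120 and 221 counts in a library.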

Other observations

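The other members of the Fbxo and Trim families were counted as a background of relatives. Of 32 other Fbxo genes in the tables, 20 were tested. With obesity, 0 were higher and 1 lower past 1.5-fold in GRf/f mice, beside 5.1% and 11.4% of all genes tested. In GRmKO mice, 0 were higher and 4 lower, beside 4.79% and 19.7%. With TMM scaling these counts were 3 higher and 0 lower, and 1 higher and 2 lower. *Fbxo4* was at 6.36 and 7.29 CPM in lean GRf/f and GRmKO and at 4.10 and 4.20 CPM in *ob/ob* GRf/f and GRmKO muscle. *Fbxo46* had log2 changes with obesity of -0.47 and -0.81 and *Fbxo33* of -0.33 and -0.65. Between genotypes, *Fbxo17* was the only one past the threshold in lean mice (log2 1.13), and 0 passed in *ob/ob* mice. Of all genes tested, 4.88% were higher and 3.59% lower in lean mice, and 4.41% and 8.11% in *ob/ob* mice.

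Of 66 other Trim genes, *Trim54* and *Trim55* included, 30 were tested. With obesity, 1 was higher and 4 lower in GRf/f mice, and 0 higher and 7 lower in GRmKO mice. The shares of all genes tested were 5.1% and 11.4%, and 4.79% and 19.7%. The counts of these Trim genes became 2 and 3, and 1 and 4, with TMM scaling. Among those lower in both were the immune genes *Trim30a* (log2 -0.99 and -1.26) and *Trim12a* (-0.98 and -1.05), both of which have close paralogs and uncertain counts. The sum of the macrophage markers was also lower in both *ob/ob* libraries, and its part in these values was not tested. *Trim36* was lower in GRf/f mice (-1.27). Between genotypes, 1 of the 30 was higher in lean mice, and 1 was higher and 1 lower in *ob/ob* mice (2 and 0 with TMM and DESeq2 scaling). The shares of all genes tested were 4.88% higher and 3.59% lower in lean mice, and 4.41% and 8.11% in *ob/ob* mice. *Trim39* was at 0.703 CPM in lean GRf/f muscle and at 7.53, 6.95 and 7.97 CPM in lean GRmKO, *ob/ob* GRf/f and *ob/ob* GRmKO muscle, which was a low value in 1 library.

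Among deubiquitinases, *Usp1* was at 9.73, 17.6, 15.0 and 10.7 CPM in lean GRf/f, lean GRmKO, *ob/ob* GRf/f and *ob/ob* GRmKO muscle. *Cyld*, which trims the chains that TRAF6 builds, was at 13.2, 15.8, 8.03 and 11.9 CPM in the same order. Of the 10 genes in this list, 1 was higher and 1 lower with obesity in GRf/f mice, 0 and 1 in GRmKO mice, 1 and 1 between lean genotypes, and 0 between *ob/ob* genotypes. Of all genes tested, 4.41% to 5.1% were higher and 3.59% to 19.7% lower in these comparisons. With TMM and DESeq2 scaling, 1 of the 10 was higher and 0 lower with obesity in GRmKO mice and also between *ob/ob* genotypes.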
